A study of Homo sapiens with 12 samples.

Results

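The vasohibin and tubulin tyrosination genes examined here were VASH2, its paralog VASH1, their shared partner SVBP and the opposing ligase TTL, 4 of the 62696 genes in the count tables. They were chosen by the change of VASH2 after TWEAK in SKBR3 cells together with its level in both lines, and the other 3 genes were added for their biochemical link to it. The values of all 4 genes in the SKBR3 treatment comparison and in the line by treatment difference, and the VASH2 values between the untreated lines, were therefore selected on and are given as a description without a test.

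SKBR3 and MDA-MB-453, 2 established HER2 breast cancer cell lines, gave 12 poly-A RNA-seq libraries, with 3 biological replicates per line left untreated and 3 per line given TWEAK. TWEAK is a cytokine of the TNF superfamily that binds the receptor Fn14, the product of TNFRSF12A. Treated cells had been starved in Opti-MEM for 8 h, received 10 ng/ml TWEAK, received it again after 24 h, and were collected after 48 h. The sample labels mark each library as untreated or TWEAK but attach this same treatment text to both, so how the untreated replicates were handled is not known, and each line is a single cell line with no engineered allele.

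Alpha-tubulin is made with a tyrosine at its C-terminus in most isotypes, and microtubules in cells cycle between a tyrosinated and a detyrosinated state. VASH1 and VASH2 are the carboxypeptidases that remove this tyrosine, SVBP is the small protein that they need for stability and activity, and TTL puts the tyrosine back on soluble tubulin. Vasohibins were first known for their effects on blood vessels, VASH1 as an inhibitor of angiogenesis made by endothelial cells, and VASH2 has been studied in tumour cells.

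VASH2 (ENSG00000143494.16) lies on the plus strand of chromosome 1 at chr1:212950520-212992037 in hg38, and no annotated gene overlaps it. VASH1 (ENSG00000071246.11) lies on the plus strand at chr14:76761468-76783015, where the lncRNA VASH1-AS1 on the opposite strand covers 14.5% of its exonic length and other lncRNAs cover 9.98% and 4.49%. SVBP (ENSG00000177868.12) lies on the minus strand at chr1:42807052-42817397 and shares 3.40% of its exonic length with TMEM269 and 4.73% with ERMAP, both on the opposite strand. TTL (ENSG00000114999.8) lies on the plus strand at chr2:112482156-112541739 with no overlapping gene. Whether counting used the strand of the reads is not stated, so reads of VASH1 and SVBP cannot be fully separated from those of their overlapping partners.

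The sequences before the start sites of the paralogs are shown because their levels differed in opposite directions between the lines. They come from RefSeq on GRCh38.p14 and run 5′ to 3′ on the plus strand, at chr1:212950291-212950519 for VASH2 and chr14:76761218-76761467 for VASH1. Capitals mark the motifs found, a CCAAT box (CCAAT) and a GC box (GGGCGG, or CCGCCC when read on the other strand).
VASH2: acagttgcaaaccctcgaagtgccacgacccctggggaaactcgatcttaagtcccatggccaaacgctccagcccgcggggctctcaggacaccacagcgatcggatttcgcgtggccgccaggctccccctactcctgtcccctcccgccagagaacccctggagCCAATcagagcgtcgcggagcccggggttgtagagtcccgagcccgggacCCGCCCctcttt
VASH1: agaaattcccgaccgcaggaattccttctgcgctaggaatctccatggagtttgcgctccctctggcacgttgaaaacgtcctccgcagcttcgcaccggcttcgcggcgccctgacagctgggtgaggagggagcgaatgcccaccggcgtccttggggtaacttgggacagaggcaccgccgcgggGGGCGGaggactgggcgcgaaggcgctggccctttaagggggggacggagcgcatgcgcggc
The motifs were searched on both strands in the 250 bases before the RefSeq start. The VASH2 window held 2 CCAAT boxes and 1 GC box, and the second CCAAT box, at 11 to 7 bases before the RefSeq start, falls past the printed stretch, which ends where the GENCODE gene model begins. The VASH1 window held 1 GC box and no CCAAT box. SVBP had 4 GC boxes, of which 2 share a base, and 1 CCAAT box, and TTL had 4 GC boxes. Among 27305 RefSeq promoters of the same length, 42.3% held a GC box, 33.0% a CCAAT box and 10.0% at least 2 CCAAT boxes. None of the 4 windows held the NF-κB consensus (5.05% of all promoters), an AP-1 site TGANTCA (6.60%), a cAMP response element TGACGTCA (1.77%), an E-box CACGTG (6.49%) or a TATA box TATAAA (11.1%). A match is a stretch of letters and not a measured binding site, and a missing match says only that these letters were not in the window.

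Library totals lay between 24773003 and 35208304 counts. TWEAK replicate 2 stood apart from its group in both lines, with a chi-square per degree of freedom against its group's other replicates of 21.3 and 24.0 for SKBR3, where the other pairs of that line gave 1.78 to 5.78, and of 10.2 and 5.37 for MDA-MB-453, where the other pairs gave 2.10 to 2.88. All 6 luminal carcinoma markers examined were above 1 CPM in every group, with mean ERBB2 levels of 7578 CPM in untreated SKBR3 and 890 CPM in untreated MDA-MB-453. TWEAK raised NFKB2, which encodes the p100 precursor of NF-κB, by 1.79 (SE 0.07, adjusted p = 9.34e-08) in SKBR3 and by 1.67 (SE 0.05, adjusted p = 3.01e-10) in MDA-MB-453 on the log2 scale (edgeR).

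In SKBR3 cells, VASH2 was close to the limit of detection without TWEAK and well measured with it. The 3 untreated SKBR3 libraries held 12, 10 and 11 VASH2 counts, and the 3 TWEAK libraries held 556, 413 and 543. As TMM-normalised CPM, the counts of a gene scaled to the size of its library, these were 0.431, 0.414 and 0.454 in untreated cells and 22.5, 16.6 and 22.7 after TWEAK. Every treated library stood far above every untreated one, and TWEAK replicate 2 was the lowest of the treated libraries. The fitted change was 5.55 on the log2 scale (SE 0.20), a 46.8-fold higher level, and it was 5.68 without TWEAK replicate 2. In this comparison 10.4% of 15661 genes passed an adjusted p of 0.1, and 6.6% passed with a higher level (edgeR). Since this is the comparison that chose VASH2, no call is given for the 4 members.

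In MDA-MB-453 cells, VASH2 was already present without TWEAK. The untreated libraries held 304, 368 and 346 counts, or 11.3, 13.4 and 12.7 CPM, and the TWEAK libraries held 372, 426 and 453 counts, or 14.3, 15.9 and 12.4 CPM. The groups overlapped, since TWEAK replicate 3 lay below 2 untreated replicates. The log2 change was 0.17 (SE 0.09, 95% interval -0.03 to 0.38) and did not pass (adjusted p = 0.542, edgeR). The upper bound is a 1.30-fold higher level. The VASH2 level in this line was part of the choice of genes, so this test does not rest on values the choice left aside. None of the 3 members tested in this line passed, against 1.49% of 14929 genes. None of the 3 had an unadjusted p under 0.05, and DESeq2 called none of them either.

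The 4 groups were ordered for VASH2 from untreated SKBR3 (0.433 ± 0.0199 CPM, SD, n = 3) through untreated MDA-MB-453 (12.5 ± 1.08) and TWEAK-treated MDA-MB-453 (14.2 ± 1.77) to TWEAK-treated SKBR3 (20.6 ± 3.48). The MDA-MB-453 groups did not differ beyond their spread. The lowest TWEAK-treated SKBR3 library, at 16.6 CPM, was just above the highest MDA-MB-453 library, at 15.9 CPM. Between untreated lines the VASH2 level was 28.4-fold higher in MDA-MB-453, a log2 difference of 4.83 (SE 0.16). Subtracting the SKBR3 log2 change from the MDA-MB-453 one gave -5.38 (SE 0.25), which follows from the values that chose the gene.

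**Figure D1:**
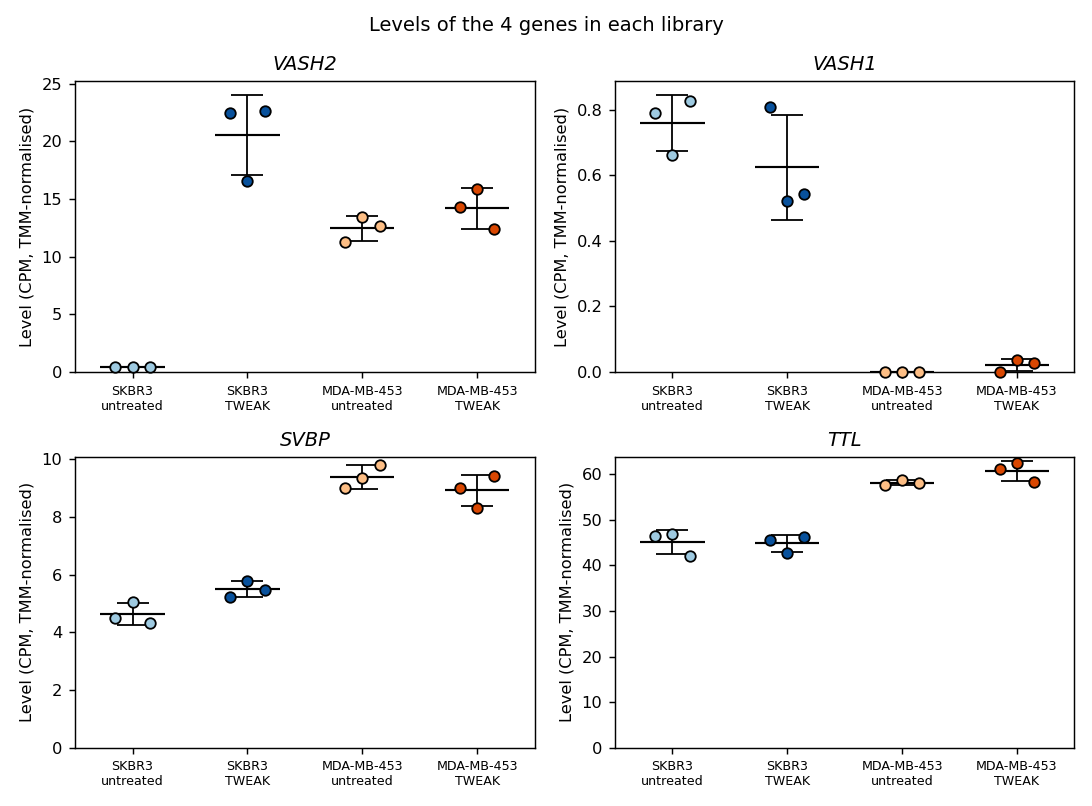
Levels of VASH2, VASH1, SVBP and TTL in CPM (TMM-normalised, linear axes from 0), with 1 point for each of 3 replicates per group, the mean as a line and ± 1 SD as the bar. VASH2 lies between 0.414 and 0.454 CPM in untreated SKBR3 and between 16.6 and 22.7 CPM after TWEAK, while TTL stays between 42.1 and 62.5 CPM in all 12 libraries.

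VASH1 was measured almost only in SKBR3, at a low level. Untreated SKBR3 libraries held 22, 16 and 20 VASH1 counts and TWEAK libraries held 20, 13 and 13, for means of 0.759 ± 0.0857 and 0.624 ± 0.160 CPM (SD, n = 3). The groups overlapped, with TWEAK replicate 1 inside the untreated range. The log2 change was -0.29 (SE 0.27), and it was -0.51 without TWEAK replicate 1. In MDA-MB-453, VASH1 had 0 counts in all 3 untreated libraries and 0, 1 and 1 in the TWEAK libraries, which is under the limit of 3 counts per library that a count of 0 allows. VASH1 was not detectable there at this depth and was not tested for TWEAK in that line. Between untreated lines it was at least 6.88-fold higher in SKBR3, measured against 3 counts per MDA-MB-453 library. The fitted log2 difference of MDA-MB-453 from SKBR3 was -7.33 (adjusted p = 4.37e-09, edgeR), a size that counts of 0 do not fix. VASH1 entered that fit through its SKBR3 counts alone, so nothing further is read from this p.

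SVBP, the partner of both vasohibins, was measured in every library. In SKBR3 it had 125, 122 and 105 counts without TWEAK and 129, 144 and 131 with it, or 4.49, 5.05 and 4.33 against 5.22, 5.77 and 5.47 CPM. All TWEAK libraries were above all untreated ones by a small margin, and the log2 change was 0.24 (SE 0.12). In MDA-MB-453 the levels were 8.99, 9.34 and 9.80 CPM without TWEAK and 9.01, 8.32 and 9.41 CPM with it. These overlapped, with a log2 change of -0.07 (SE 0.08, 95% interval -0.24 to 0.10, adjusted p = 0.787, edgeR). The untreated lines did not overlap, and SVBP was 2.02-fold higher in MDA-MB-453 (log2 difference 1.02, SE 0.10, adjusted p = 6.40e-10, edgeR).

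TTL, the ligase that restores the tyrosine, had overlapping levels with and without TWEAK in both lines. Its SKBR3 levels were 46.4, 47.0 and 42.1 CPM without TWEAK and 45.5, 42.7 and 46.1 CPM with it, from 1021 to 1291 counts per library. The groups overlapped, and the log2 change was -0.02 (SE 0.07). In MDA-MB-453 the levels were 57.6, 58.7 and 58.0 CPM without TWEAK and 61.1, 62.5 and 58.3 CPM with it. TWEAK replicate 3 lay within the untreated range there, and the log2 change of 0.06 (SE 0.04, 95% interval -0.03 to 0.15) did not pass (adjusted p = 0.651, edgeR). TTL was 1.28-fold higher in untreated MDA-MB-453 than in untreated SKBR3, with no overlap (log2 difference 0.36, SE 0.05, adjusted p = 3.24e-07, edgeR).

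VASH1, SVBP and TTL passed the threshold between the untreated lines, but so did 87.2% of 16315 genes. These calls are therefore near the background. The VASH2 values between these lines were selected on, and no call is given for them. The directions were not shared. VASH2, SVBP and TTL were higher in MDA-MB-453 and VASH1 was higher in SKBR3.

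Levels can be compared between these genes only per length, here as CPM per kilobase of all annotated exons. In untreated SKBR3, VASH1 stood at 0.105 and VASH2 at 0.0477 CPM per kilobase, both far below SVBP at 3.42 and TTL at 2.87. After TWEAK, VASH2 stood at 2.26 ± 0.383 (SD, n = 3), close below TTL at 2.85 and below SVBP at 4.06. With the longest transcript of each gene as length, VASH2 stood there at 4.60, above TTL at 3.14 and below SVBP at 6.80. In MDA-MB-453 VASH2 stood at 1.37 without and 1.56 with TWEAK, where TTL stood at 3.70 and 3.85 and SVBP at 6.93 and 6.59. SVBP was the most abundant member per length in all 4 groups.

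Of the vasohibin transcripts per length, VASH2 made up 31.3% ± 1.65 in untreated SKBR3 and 96.3% ± 0.711 after TWEAK (SD, n = 3). In MDA-MB-453 the share was 100% and 99.8%. The ratio of vasohibins to TTL was 0.0535 ± 0.00766 in untreated SKBR3 and 0.823 ± 0.109 after TWEAK, against 0.371 ± 0.0289 and 0.405 ± 0.0369 in MDA-MB-453. The TWEAK-treated SKBR3 libraries, at 0.697 to 0.894, were above all other libraries in this ratio. The ratio of vasohibins to SVBP was 0.0451 and 0.584 in SKBR3, against 0.198 and 0.239 for MDA-MB-453, so that SVBP transcripts outnumbered those of its partners in every group. These ratios depend on the length used: with the longest transcript of each gene the ratio to TTL in TWEAK-treated SKBR3 was 1.49, above rather than below 1. VASH2 has 12 annotated transcripts, and counts per gene do not say which were made, nor do they measure protein or detyrosinated tubulin.

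**Figure D2:**
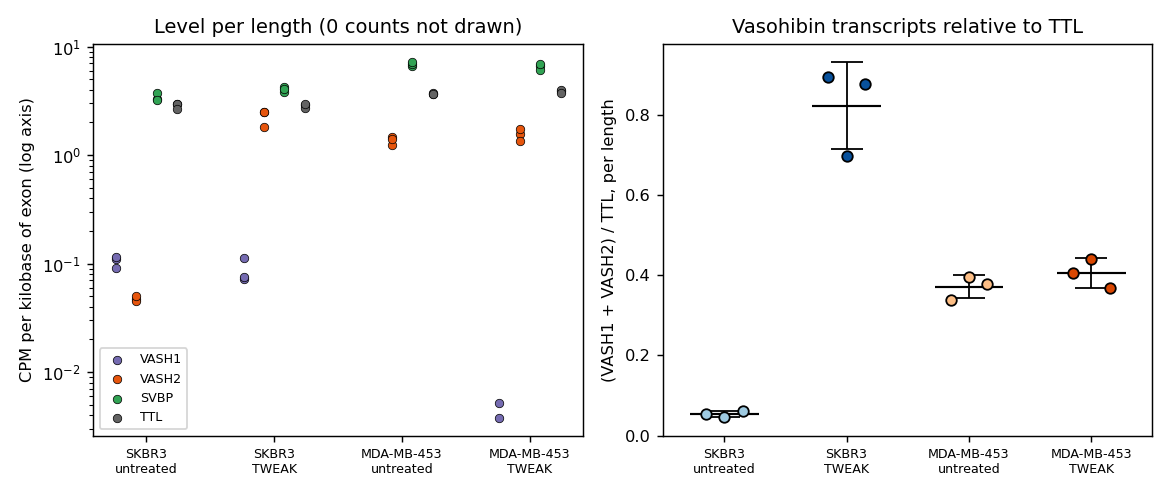
Left, level of each gene per kilobase of exon (log axis, 1 point per library, libraries with 0 counts not drawn); right, the per-length ratio of VASH1 plus VASH2 to TTL (linear axis, 3 replicates per group with mean and ± 1 SD). The ratio is 0.0535 in untreated SKBR3 and 0.823 after TWEAK, and lies between 0.339 and 0.442 in the MDA-MB-453 libraries.

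The genes around VASH2 moved far less than it did. Of the 6 protein-coding genes within 250 kb, ANGEL2 ends 145 bases past VASH2 on the opposite strand, and NSL1, TATDN3, SPATA45 and FLVCR1 lie before it and RPS6KC1 after it. SPATA45 had too few counts to test. None of the other 5 passed in SKBR3, which is near the background of 10.4% of all genes, and log2 changes ran from -0.22 for FLVCR1, a heme and choline transporter (SE 0.07, adjusted p = 0.127), to 0.06 for RPS6KC1 (SE 0.09, adjusted p = 0.757, edgeR). TATDN3 was at -0.21 (adjusted p = 0.144), NSL1, a kinetochore protein, at -0.07 (adjusted p = 0.652) and ANGEL2 at -0.03 (adjusted p = 0.891). Of these, 2 had an unadjusted p under 0.05, and DESeq2 called none. FLVCR1 and TATDN3, lower in all 3 TWEAK libraries, did pass without TWEAK replicate 2, at -0.18 (adjusted p = 0.0698) and -0.21 (adjusted p = 0.0763), and FLVCR1 also without TWEAK replicate 3, at -0.28 (adjusted p = 0.0713, edgeR). With all 12 libraries in 1 fit their adjusted p were 0.0483 and 0.0586. In MDA-MB-453 the 5 genes lay between -0.06 and 0.04 with adjusted p of 0.713 to 0.994, 0 of them had an unadjusted p under 0.05, and DESeq2 called none. The edgeR fit called 1.49% of all genes in that line.

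**Figure D3:**
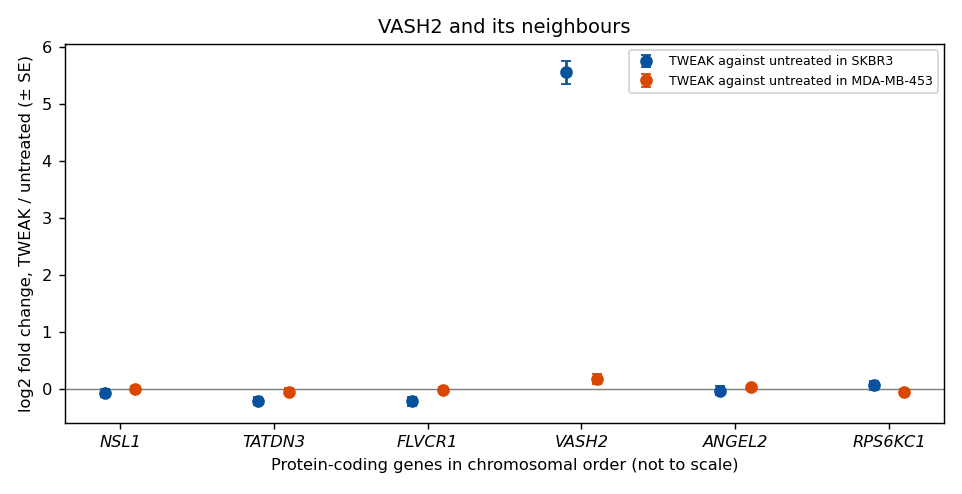
Log2 fold change (TWEAK over untreated, ± SE) of VASH2 and the 5 tested protein-coding genes within 250 kb, in chromosomal order, in SKBR3 (blue) and MDA-MB-453 (orange). VASH2 in SKBR3 stands at 5.55, and all its neighbours lie between -0.22 and 0.06 in both lines.

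Of the tubulin genes, 1 alpha and 1 beta gene passed in SKBR3, among 4 and 7 tested and against 6.6% of all genes called higher. Of 9 alpha-tubulin genes, 4 could be tested in SKBR3, and TUBA1C rose from 454 ± 9.80 to 561 ± 40.5 CPM (SD, n = 3), by 0.30 on the log2 scale (SE 0.07, adjusted p = 0.0164, edgeR). All 3 TWEAK libraries were above all untreated ones, and the call was lost without untreated replicate 2 (adjusted p = 0.114). TUBA1B, the most abundant alpha-tubulin gene of the 4 tested, was at 0.08 (adjusted p = 0.569) and TUBA1A at 0.13 (adjusted p = 0.788). TUBA4A, whose product is made without the terminal tyrosine, was at -0.11 (adjusted p = 0.571). Without TWEAK replicate 2, TUBA4A passed at -0.22 (adjusted p = 0.0131, edgeR) and TUBA1A turned to -0.08 (adjusted p = 0.883). In MDA-MB-453 none of the same 4 passed, with TUBA1A at 0.18 (adjusted p = 0.722), TUBA1C at 0.04 (0.698), TUBA1B at 0.03 (0.823) and TUBA4A at 0.01 (0.970). Of 9 beta-tubulin genes, 7 were tested in SKBR3, with log2 changes from -1.13 for TUBB8 to 0.89 for TUBB3, both at under 1 CPM in each SKBR3 group and neither passing (adjusted p = 0.101 and 0.145, edgeR). An unadjusted p under 0.05 was found for 4 of the 7, and TUBB passed at 0.18 (SE 0.06, adjusted p = 0.0948, edgeR). Without untreated replicate 1 its adjusted p was 0.329, without untreated replicate 2 it was 0.333, without untreated replicate 3 it was 0.169, and without TWEAK replicates 1 or 3 it was 0.204 or 0.253. The TUBB call was also lost with DESeq2 (adjusted p = 0.110), without a filter on low counts (0.147) and with a replicate block (0.217). None of 3 tested beta-tubulin genes passed in MDA-MB-453, where 1.49% of all genes did. The tubulin genes are near-identical copies, so the counts of single members are uncertain.

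Outside the vasohibins, MATCAP1 is a further alpha-tubulin detyrosinating enzyme, and MATCAP2 is its paralog, with activity described on other parts of tubulin tails. MATCAP2 fell in SKBR3, from 41.0, 37.4 and 35.9 CPM to 30.5, 27.9 and 32.6 CPM, with no overlap (log2 change -0.34, SE 0.08, adjusted p = 0.0281, edgeR). The call was lost without untreated replicate 1 (adjusted p = 0.161) and without untreated replicate 2 (adjusted p = 0.102). In MDA-MB-453, MATCAP2 had between 0 and 8 counts per library and was not tested for TWEAK, and it was lower in untreated MDA-MB-453 than in untreated SKBR3 (adjusted p = 6.05e-24, edgeR), with a fold that these few counts do not fix. MATCAP1 was measured in both lines, at 16.5 ± 0.914 CPM in untreated SKBR3 and 36.2 ± 3.37 CPM in untreated MDA-MB-453 (SD, n = 3). The MATCAP1 log2 difference between lines was 1.13 (SE 0.07, adjusted p = 3.29e-14, edgeR). It did not pass after TWEAK in either line, at -0.07 (adjusted p = 0.715) and 0.03 (adjusted p = 0.894).

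Among enzymes of other tubulin marks, TTLL4, a glutamylase of the TTL-like family, rose in SKBR3 by 0.31 (SE 0.07, adjusted p = 0.0141, edgeR), and without untreated replicate 1 its adjusted p was 0.102. Of all genes tested in SKBR3, 10.4% passed and 6.6% passed with a higher level, so that none in a list this small is near the background. The other 6 tested TTL-like ligases did not pass, nor did any of 4 tested cytosolic carboxypeptidases or of 3 enzymes of tubulin acetylation. None of the 9 proteins that read the tyrosination state, such as the plus-end protein CLIP1 and the kinesin KIF5B, passed in SKBR3. In these lists of 4, 3 and 9 genes, 0, 1 and 1 had an unadjusted p under 0.05, and DESeq2 called none. Without TWEAK replicate 2, 1 acetylation enzyme was called higher and 1 reader lower in SKBR3. With all 12 libraries in 1 fit, 1 acetylation enzyme and 1 reader were called lower, and without a filter 1 reader was called higher. Of 16 tested microtubule-associated and severing proteins, MAP4, which stabilises microtubules, rose by 0.29 (SE 0.06, adjusted p = 0.0110, edgeR), from 256 ± 2.21 to 313 ± 17.5 CPM (SD, n = 3). Without TWEAK replicate 2, 2 genes of that list were called lower, and so was 1 beta-tubulin gene, where 1191 genes in all were called lower. With all 12 libraries in 1 fit, 2 genes of that list were called higher and 1 beta-tubulin gene lower. The medians of these lists in SKBR3 lay between -0.20 for the MATCAP pair and 0.15 for the beta-tubulins, where the median of all tested genes was -0.01. In SKBR3, 3.82% of tested genes passed with a lower level. In MDA-MB-453 no gene of the tubulin, enzyme, reader and microtubule-associated lists passed, with DESeq2 calling none and 2 readers alone having an unadjusted p under 0.05, in a comparison where 1.29% of genes passed with a higher and 0.208% with a lower level. Without TWEAK replicate 2 of MDA-MB-453, calls did appear: 4 microtubule-associated proteins, 2 readers, 1 TTL-like ligase and 1 acetylation enzyme were lower, and 1 reader was higher. Under that setting 1098 genes in all were called lower and 1003 higher, against 31 and 192 with every library.

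Of 18 angiogenic ligands and receptors, 8 were tested in SKBR3 and 2 passed with a lower level, against 3.82% of all genes tested. NRP1, a co-receptor for VEGF, fell by 0.61 on the log2 scale (SE 0.08, adjusted p = 0.000629), and THBS1, which encodes the angiogenesis inhibitor thrombospondin-1, fell by 0.53 (SE 0.09, adjusted p = 0.00322, edgeR). No gene of the list was called higher, but 1 was without untreated replicate 3, 1 without a filter and 2 with all 12 libraries in 1 fit. In MDA-MB-453, 6 were tested and THBS1 fell by 0.24 (SE 0.05, adjusted p = 0.0365, edgeR). That call was lost without TWEAK replicate 3 (adjusted p = 0.160), without untreated replicate 2 (0.296) or 3 (0.245), and with all 12 libraries in 1 fit (0.448). Without TWEAK replicate 2, or with a replicate block, 2 genes of this list were called lower. VEGFA did not pass in either line, at -0.02 (adjusted p = 0.925) and -0.12 (adjusted p = 0.256).

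**Figure D4:**
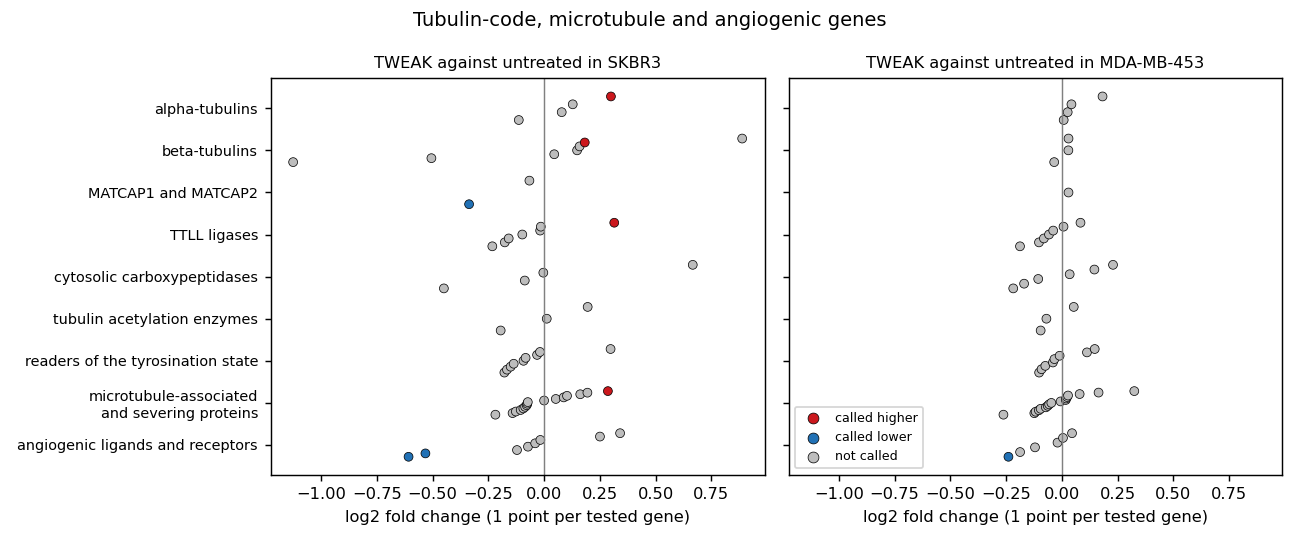
Log2 fold change (TWEAK over untreated) of every tested gene of 9 lists, 1 point per gene, in SKBR3 (left) and MDA-MB-453 (right), with genes called at an adjusted p of 0.1 in red (higher) or blue (lower) and the rest in grey. TUBA1C, TUBB, TTLL4 and MAP4 are called higher and MATCAP2, NRP1 and THBS1 lower in SKBR3, and THBS1 alone is called in MDA-MB-453.

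Since VASH1 is known from endothelial cells, markers of other cell types were examined beside the vasohibins. Of 8 endothelial markers, 6 were at or below 1 CPM in SKBR3 in both groups, with TIE1 and CLDN5 at 0 counts in every SKBR3 library and KDR at 0 after TWEAK. The summed level of the 8 was 4.31 to 5.28 CPM in untreated SKBR3, 6.79 to 8.02 CPM after TWEAK and at most 0.634 CPM in MDA-MB-453. CDH5, which encodes VE-cadherin, rose in SKBR3 from 1.74 ± 0.166 to 4.21 ± 0.766 CPM (SD, n = 3), by 1.26 on the log2 scale (SE 0.17, adjusted p = 0.000855, edgeR), while VWF was at -0.10 (adjusted p = 0.783). All 6 leukocyte markers and 6 of 7 fibroblast markers were at or below 1 CPM in every group, and the exception was COL1A1, at 19.2 CPM in untreated SKBR3 and 17.7 CPM after TWEAK. In MDA-MB-453, COL1A1 stood at 120 CPM without TWEAK and 111 CPM with it. Between the untreated lines it was higher in MDA-MB-453 (log2 difference 2.64, SE 0.06, adjusted p = 1.77e-24, edgeR). VASH2 also differed in that direction, but 87.2% of 16315 genes passed between these lines in either direction. COL3A1, DCN, LUM and PDGFRA were at 0 counts in every MDA-MB-453 library. The part of these markers in the VASH2 values was not tested. In bulk libraries, more cells with VASH2 and more VASH2 RNA per cell cannot be told apart.

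The receptor and response genes of TWEAK passed in SKBR3 in 4 of 4 cases, all higher, against 6.6% of all genes tested. This list was written with earlier results of these data known, so its counts in both lines are a description. TNFRSF12A rose by 0.36 there (SE 0.09, adjusted p = 0.0322), a call lost without untreated replicate 1 (adjusted p = 0.170) or 2 (adjusted p = 0.144, edgeR). In MDA-MB-453, where TNFRSF12A was at 0.17 (SE 0.05, adjusted p = 0.129), the other 3 genes passed, against 1.29% of all genes tested. TNFRSF12A passed as well without TWEAK replicate 2 (adjusted p = 0.00849), with a replicate block (0.0200) and without a filter on low counts (0.0568, edgeR). BIRC3, which encodes the ubiquitin ligase cIAP2, rose by 3.42 (SE 0.10, adjusted p = 1.85e-08) in SKBR3 and by 3.57 (SE 0.17, adjusted p = 1.57e-08) in MDA-MB-453 (edgeR). RELB, an NF-κB subunit, rose by 1.44 (SE 0.12, adjusted p = 1.73e-05) and 2.75 (SE 0.13, adjusted p = 2.95e-08, edgeR).

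The genes whose profile over the 12 libraries was most like that of VASH2 were ZFP36L1, CCNG2, IGFBP3, MST1R and EFNB1, with Pearson correlations of 0.990, 0.984, 0.980, 0.979 and 0.971 on log2(CPM + 0.5) among 14703 genes. The 12 points are 4 groups of 3 that share their treatment and line, so the correlation mostly compares the groups, and ranking by Spearman correlation gave a different top 5 with 0 genes in common. All 5 were lowest in untreated SKBR3. ZFP36L1, an mRNA-decay factor, stood at 200 CPM in untreated and 349 CPM in TWEAK-treated SKBR3, and at 333 and 336 CPM in MDA-MB-453. MST1R, the receptor tyrosine kinase RON, stood at 46.3 and 130 CPM in SKBR3 and, in MDA-MB-453, at 133 and 142 CPM. IGFBP3, an IGF-binding protein, stood at 11.9 and 41.1 CPM in SKBR3 and at 35.1 and 43.5 CPM in MDA-MB-453. Each of the 5 covered a narrower fold range than VASH2.

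The TWEAK response differed between the lines for 3.37% of 17201 genes in the test over all 12 libraries. Among the tubulin, microtubule-associated and response genes named here these were TUBA1C, MAP4 and RELB. The TUBA1C call was lost in 11 of its 18 alternatives, such as a replicate block (adjusted p = 0.165, edgeR).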

How the data were processed

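Poly-A RNA was sequenced from 3 untreated and 3 TWEAK-treated replicates of SKBR3 and MDA-MB-453. The authors trimmed reads with Trimmomatic, mapped them to hg38 with STAR and counted them per gene with featureCounts. The deposited values are raw counts. Tool versions, the annotation release, strand setting and handling of multi-mapping reads are not given in the sources used here. Duplicate reads carry no molecular identifiers, so limits from 3 counts cover counting error only. Symbols and lengths came from GENCODE v44 (61918 of 62696 identifiers matched with version, 62672 without).

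Each comparison was fitted on its own libraries with edgeR 4.0.16 in R 4.3.3 (filterByExpr with its minimum of 10 counts, TMM, quasi-likelihood test, prior count 0.125), without a replicate term, and adjusted over all genes tested by Benjamini-Hochberg with a threshold of 0.1. CPM levels used TMM factors over all 12 libraries, and per-length levels divided these by exonic length. P-values test a difference between groups against the spread of replicates, which the fit estimates over its groups and moderates across genes. An exact permutation of 3 against 3 cannot go below 0.1, so no permutation p is given. Scripts were tested on simulated data.

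The genes and lists were chosen with earlier results of these data known. Named genes were the 4 members, every alpha-tubulin and TWEAK response gene tested, list genes called in a TWEAK comparison (up to 6 per list), the 5 genes most like VASH2 and its neighbours. MATCAP1, VEGFA, VWF, COL1A1, ERBB2, TUBB3 and TUBB8 were named as reference points after their values were seen. The alternatives were DESeq2 size factors, DESeq2 1.42.0, no filter, 10 counts in every library, all 12 libraries in 1 fit, a replicate block, an adjusted p of 0.05, each library left out, the longest transcript as length and Spearman correlation.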

Additional observations from a re-analysis of the deposited data

Results flagged for a closer look

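The TWEAK response of 3 named genes differed between the lines by the interaction test over all 12 libraries (edgeR). TUBA1C, an alpha-tubulin gene, responded less in MDA-MB-453 than in SKBR3 by -0.26 on the log2 scale (SE 0.07, adjusted p = 0.0759). Over its 18 alternatives the adjusted p of TUBA1C ran from 0.0223 to 0.205, and 11 of them lost the call. MAP4 responded less by -0.36 (SE 0.08, adjusted p = 0.0174) and kept its call in all 18. RELB responded more in MDA-MB-453, by 1.30 (SE 0.21, adjusted p = 0.00158), from a lower untreated level of 1.26 CPM against 17.0 CPM in SKBR3, and kept its call in all 18. Groups of 3 were not tested for single outlying values of a gene.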

How the results depend on the processing

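VASH2 in SKBR3 stayed between 5.47 and 5.68 on the log2 scale over its 12 alternatives. In MDA-MB-453 it was at 0.08 to 0.28 (adjusted p 0.236 to 0.940), with no call over 13. SVBP and TTL, where tested, kept their side of the threshold in all alternatives, being called between the untreated lines and not after TWEAK in MDA-MB-453, and VASH1 was called between the untreated lines in all 12 (largest adjusted p = 3.12e-07). With each library left out, the VASH1 change in SKBR3 ranged from -0.51 to -0.17. Low counts limit VASH1 in both lines and VASH2 in untreated SKBR3.

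The numbers of genes called moved more. With each library left out, SKBR3 had 686 to 1589 genes called higher and 240 to 1191 called lower. MDA-MB-453 had 120 to 1003 called higher and 10 to 1098 called lower. The largest of each came without TWEAK replicate 2. An adjusted p of 0.05 left 363 called lower in SKBR3 against 17 for MDA-MB-453, and 1 fit of all 12 libraries gave 1068 against 13. Without a filter MDA-MB-453 had 302 called higher and 178 called lower. The cause was not tested.

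Replicate numbers did not pair the samples in SKBR3, where same-number correlations of deviations were 0.11, -0.10 and -0.16 and different numbers reached 0.25. In MDA-MB-453 the same-number correlations were 0.09, 0.08 and 0.02. All of these were above the different-number ones, which ran from -0.086 to 0.0043. Whether the replicates of that line were paired is not known. A replicate block gave 387 lower genes in SKBR3. For MDA-MB-453 it gave 490 called higher and 404 called lower, with VASH2 at 0.18 (adjusted p = 0.236). VASH2 in SKBR3 stayed at 5.55.

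With the longest transcript as length, the VASH2 share of vasohibins in SKBR3 was 45.2% untreated and 97.9% after TWEAK. The ratio of vasohibins to TTL was 0.0681 and 1.49 in SKBR3, against 0.684 and 0.746 for MDA-MB-453, where that to SVBP was 0.240 and 0.290. Spearman ranking kept 0 of the 5 genes most like VASH2.

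Some changes near 0 turned direction when a library was left out, none with a call. In SKBR3 TTL ranged from -0.059 to 0.016, and was above 0 without untreated replicate 1 or 2 or TWEAK replicate 2. TUBA1A there ranged from -0.079 to 0.27 and ANGEL2 from -0.071 to 0.057. For MDA-MB-453 the ranges were -0.032 to 0.069 for TUBA4A, -0.023 to 0.11 for MATCAP1, -0.052 to 0.022 for NSL1, -0.073 to 0.0056 for TATDN3 and -0.064 to 0.012 for FLVCR1. NSL1 was at 0.00090 there without a filter.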
